A study of Canis lupus familiaris with 13 samples.

Results

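The 10 genes described here encode the subunits of the transcription factor NF-κB and the inhibitors and cofactors that it induces. They were taken by symbol from the raw counts table. The subunits are NFKB1, NFKB2, REL, RELA, and RELB, and the inhibitors and cofactors are NFKBIA, NFKBIE, NFKBIZ, TNFAIP3, and BCL3. All 10 were found among the 43427 symbols of the table, and all 10 were among the 20118 genes that passed the filter on low counts. The data are 13 RNA-seq libraries, prepared with strand information, of biopsies from 4 spontaneous tumors in 3 companion dogs, with 4 libraries before treatment, 4 early libraries, and 5 late libraries.

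All treated tumors received IMAX, an intratumoral nanoparticle complex of a lithocholic acid-modified polyethyleneimine, paclitaxel, and a cyclic dinucleotide that activates STING. Dog RV had a soft tissue sarcoma, sampled before treatment and 2 days after the second dose. It was sampled again 2 weeks after the third dose at 2 locations of the same mass, the injection site and an adjacent site. In the paper's histology of the RV biopsy at 2 days, tumor cells were not definitively identified. The diagnosis given there was granulomatous to pyogranulomatous dermatitis with bizarre mitoses, so the early RV library may hold little tumor. Dog CL had a cranial and a caudal mammary tumor, and both were sampled before treatment and again after the second dose, at 1 week and at 1 month. For dog BM, a mammary tumor was sampled before treatment and after the second dose at 1 week and at 3 weeks. Each tumor gave 1 library per time point, apart from the 2 late RV sites. No untreated dog was sampled, so treatment cannot be told apart from time or from the effect of an earlier biopsy. The early biopsy of RV was taken sooner than that of the mammary tumors, so tumor type, dog, and time cannot be told apart. The BM libraries also differ from the others in the prefix of their library names.

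NF-κB works as a dimer. In the canonical pathway, receptors for TNF, IL1, or microbial products activate the IKK kinase, which marks IκB proteins for degradation and frees dimers of RELA or REL with p50, the product of NFKB1. In the noncanonical pathway, receptors such as CD40 and LTBR stabilize the kinase NIK, and p100, the product of NFKB2, is processed to p52, the partner of RELB. Many of the genes that NF-κB switches on encode its own inhibitors, so the transcripts of NFKBIA and TNFAIP3 are often used as readouts of recent signaling, while activity itself is set by protein degradation and nuclear entry, which RNA does not measure.

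Library totals ranged from 11622444 to 29931125 counts, and the smallest member count was 12. Levels are given as CPM, a gene's counts scaled to a common library total, after trimmed mean of M values (TMM) scaling. They compare libraries within a gene and not genes with each other, because transcript lengths were not used. Leukocyte markers (5 of 5 genes, none under 3 counts) summed to 245 to 393 CPM before treatment, 624 to 1981 CPM early, and 204 to 792 CPM late. Macrophage and monocyte markers (6 of 6) summed to 113 to 344, 639 to 1131, and 160 to 629 CPM, so every early library was above every other library for this list. Endothelial markers summed to 40.5 to 128 CPM before, 102 to 1425 CPM early, and 43.3 to 202 CPM late. Neutrophil markers (5 of 6 analyzed) summed to 6455 CPM in the early RV library and 40.0 CPM in the RV library before treatment. In the caudal CL tumor they stood at 2107 CPM before, 107 CPM early, and 883 CPM late. Markers of fibroblasts and mesenchyme were at 31368 CPM in RV before treatment and at 3331 CPM in its early library. Epidermal markers (10 of 11 analyzed) were at 72.8 CPM in RV before and at 3069 CPM early. In BM the mesenchymal markers went the other way, at 2158 CPM before, 30892 CPM early, and 109201 CPM late. Epidermal markers in BM were at 3534, 1425, and 115 CPM. Mesenchymal markers before and early were at 14874 and 9731 CPM in cranial CL and at 8016 and 11899 CPM in caudal CL. Mammary epithelial markers were low for the label in the 3 caudal CL libraries (301 to 689 CPM, against 2934 to 4920 CPM in the cranial ones) and in the late BM library (190.3 CPM). T-cell markers (12.8 to 34.1 CPM before, 26.4 to 174 CPM early), B-cell and plasma cell markers (82.6 to 645 and 42.1 to 815 CPM), and bone markers (186 to 1625 and 776 to 1134 CPM) overlapped between the before and early libraries. The part of these differences in tissue and cell content in the values below was not tested. In bulk tissue, fewer cells of a type and less RNA per cell cannot be told apart.

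The 13 libraries also differed in how much signal lay in gene-dense regions. The mean log2 CPM of genes in the densest regions minus that in the sparsest ranged from -1.60 in the early RV library to 1.2 in the late BM library. In the caudal CL tumor this difference was -1.24 before treatment, 0.24 early, and -0.90 late. The members lie in neighborhoods from the 21.96 percentile of tested genes for TNFAIP3 to the 94.9 percentile for RELA, counted as neighbors within 500000 bases. The values were also refitted with offsets for gene density and gene span, and refitted values are given below beside several of the values that they move most.

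The comparison of early libraries with those before treatment asks whether NF-κB genes differed soon after injection. The early values were highest in dog RV. In 9 of the 10 members the highest of the 13 libraries was the RV biopsy at 2 days, against 22.7% of all tested genes, and REL was highest in the late cranial CL library. When the tumor was a block in 1 fit of all 13 libraries, all 10 members were fitted higher early than before treatment. So were 12123 of the 20118 genes tested. The median log2 fold change was 0.98 over the members and 0.25 over all genes. With RV left out, 8 members were fitted higher, with a median of 0.59 against 0.06 over all genes. None passed the adjusted threshold of 0.05 in edgeR's quasi-likelihood test, a threshold that 1 of all tested genes passed (0.00497%). At an unadjusted p under 0.05, 4 members were higher (BCL3, NFKB2, RELB, and NFKBIE), a count to be read against 7.7% of all genes. DESeq2 on the same counts passed 2 members, BCL3 and NFKB2, where it passed 4.75% of all genes. Late against before treatment the median over the members was 0.04, and no member reached even the unadjusted threshold, which 4% of all genes did in either direction.

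**Figure D1:**
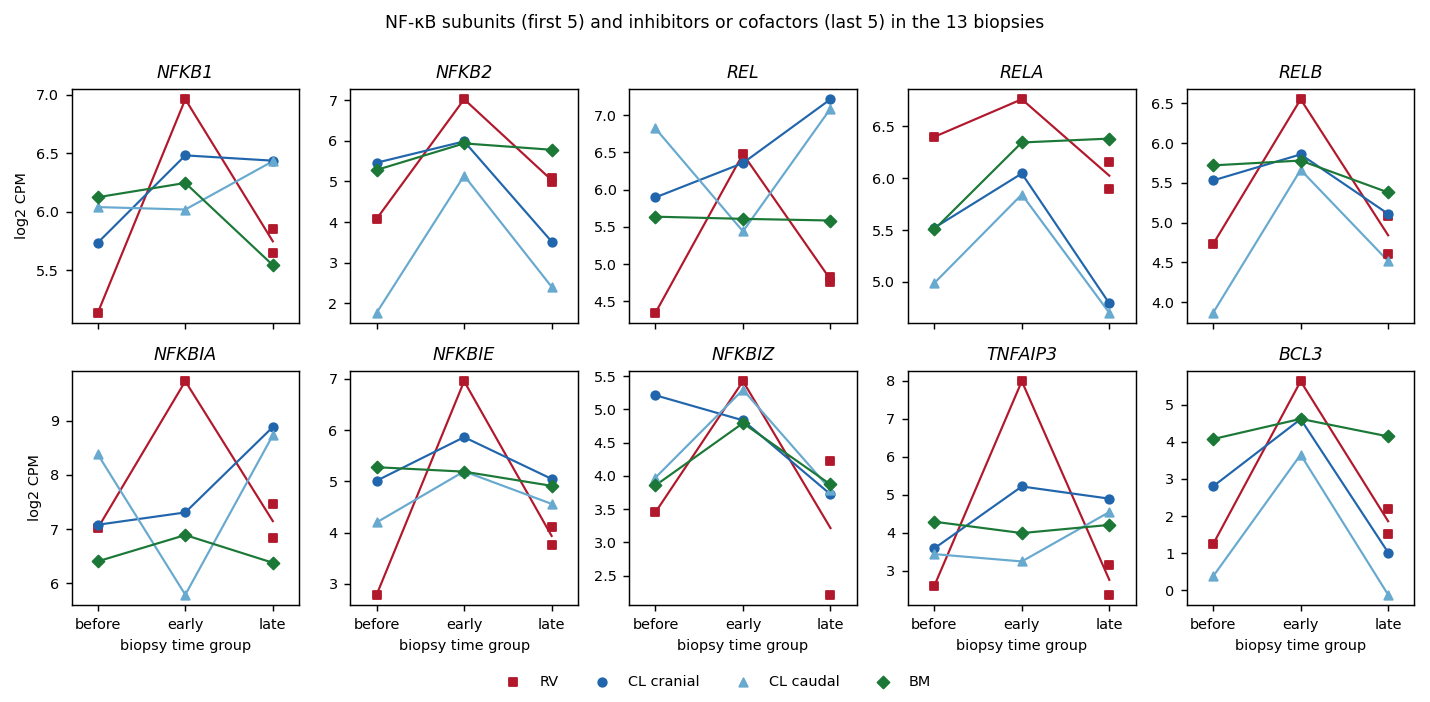
Level of each of the 10 genes as log2 CPM (vertical axis, own scale per gene) in the 13 biopsies by time group (horizontal axis). Each symbol is 1 library, colors and shapes mark the tumors, and lines join the libraries of a tumor, through the mean of the 2 late RV sites. The RV values peak at 2 days in all 10 panels, while in the CL tumors NFKBIA and REL are highest late.

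NFKB2 and RELB, the pair of the noncanonical pathway, were higher early than before treatment in all 4 tumors. NFKB2 (chr28:15093467-15101311 in UU_Cfam_GSD_1.0) encodes p100. Before treatment it stood at 16.8 CPM in RV, 44.0 in the cranial CL tumor, 3.29 in the caudal CL tumor, and 38.9 in BM. Early values were 130.4, 63.4, 35.2, and 61.3 CPM in the same order. Late values were 31.6 and 33.7 CPM at the injection and adjacent RV sites, 11.4 and 5.18 CPM in the cranial and caudal CL tumors, and 54.9 CPM in BM. Each tumor's own early value was thus its highest, but the groups overlapped, because the tumors started from different levels. The 2 lowest values, both in the caudal CL tumor, rested on 55 and 76 counts (exact Poisson 95% intervals 41.4 to 71.6 and 59.9 to 95.1, which cover counting error only). The fitted log2 fold change was 1.86 (SE 0.60, adjusted p = 0.301) early against before and 1.84 (SE 0.55, adjusted p = 0.0806) early against late.

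RELB (chr1:111145641-111175691) encodes the subunit that pairs with p52. Its levels before treatment were 26.5 CPM in RV, 46.1 in cranial CL, 14.5 in caudal CL, and 52.6 in BM, and early they were 93.7, 57.9, 50.6, and 54.9 CPM. Late levels were 33.7 and 24.2 CPM at the RV sites, 34.4 in cranial CL, 22.8 in caudal CL, and 41.5 in BM. Under TMM scaling all early libraries were above all late ones, a pattern that 3 of the 10 members (RELB, NFKBIE, and NFKBIZ) and 4.49% of all genes showed. The early difference from before treatment was large in RV (log2 1.82) and caudal CL (1.80) and close to 0 in BM (0.06). The fitted log2 fold change was 1.01 (SE 0.38, adjusted p = 0.384) early against before and 1.09 (SE 0.35, adjusted p = 0.0902) early against late. With the density and span offsets the fitted values were 0.59 (adjusted p = 0.461) and 0.44 (adjusted p = 0.380). The early difference from before treatment was then 0.69 in caudal CL and 1.27 in RV, and the cranial CL tumor was lower early than late (-0.19).

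RELA (chr18:52051615-52060481) encodes p65, the main transactivating subunit of the canonical pathway. It ranged 4.19-fold over the 13 libraries, from 25.9 CPM in the late caudal CL library to 108 CPM in the early RV library. It stood at 84.4, 45.8, 31.6, and 45.3 CPM before treatment and at 108, 66.0, 57.3, and 81.2 CPM early in RV, cranial CL, caudal CL, and BM. The early difference was between log2 0.36 and 0.86 in the 4 tumors under TMM scaling. The fit gave 0.63 (SE 0.33, adjusted p = 0.501) early against before and 0.76 (SE 0.31, adjusted p = 0.153) early against late. RELA lies in the most gene-dense neighborhood of the 10. With the offsets the fitted values were 0.22 and 0.34, and the caudal CL difference was -0.59, so that 3 of 4 tumors were higher early than before. In BM the late level, 83.4 CPM, stayed near the early one, while in the CL tumors late levels (27.6 and 25.9 CPM) were below those before treatment.

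NFKB1 (chr32:15842831-15961478), which encodes p105 and p50, ranged 3.55-fold. It was at 35.1, 53.2, 65.7, and 69.6 CPM before treatment and at 125, 89.3, 64.7, and 75.8 CPM early in RV, cranial CL, caudal CL, and BM. The early difference was log2 -0.02 in the caudal CL tumor and 1.83 in RV. NFKB1 lies in a gene-sparse neighborhood (25.4 percentile) and spans a long gene, and with the offsets the RV difference was 0.02. The fitted early value was 0.69 (SE 0.38, adjusted p = 0.518), and 0.28 with the offsets. Early against late it was 0.46 (SE 0.35, adjusted p = 0.412), and -0.23 with the offsets. Late levels were 46.5 to 86.5 CPM.

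REL (chr10:62277508-62321170), the c-Rel subunit found mainly in lymphoid and myeloid cells, was lower early than before in the caudal CL tumor and highest late in both tumors of dog CL. Its early level in the caudal CL tumor, 43.3 CPM, was below the 113 CPM before treatment and the 136 CPM at 1 month. In the cranial CL tumor it was at 59.5 CPM before, 82.0 CPM early, and 148 CPM at 1 month. In RV it was at 20.3 CPM before, 89.1 CPM at 2 days, and 28.4 and 27.0 CPM at the late sites. BM was flat, at 49.7, 48.7, and 48.0 CPM. The fit gave 0.48 (SE 0.56, adjusted p = 0.722) early against before, -0.30 with RV left out, and 0.17 with the offsets. Early against late it gave 0.11 (SE 0.51, adjusted p = 0.907), and -0.38 with the offsets.

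Among the inhibitors and cofactors, BCL3 and NFKBIE had fitted early values above 1.5 on the log2 scale, as did TNFAIP3. BCL3 (chr1:111329233-111338394) encodes a nuclear IκB protein that binds p50 and p52 dimers and can turn them into activators. Before treatment it stood at 2.27 CPM in RV, 6.87 in cranial CL, 1.196 in caudal CL, and 16.8 in BM. Early it stood at 49.7, 24.4, 12.5, and 24.5 CPM. Late it was at 2.78 and 4.48 CPM in RV, 1.92 in cranial CL, 0.82 in caudal CL, and 17.6 in BM. BCL3 was low outside the early libraries in RV and both CL tumors, and in BM it was high throughout, with an early difference of log2 0.55 against 4.40 in RV, 3.28 in caudal CL, and 1.81 in cranial CL. Group means were 6.78 ± 7.11 CPM before (SD, n = 4), 27.8 ± 15.7 CPM early (SD, n = 4), and 5.53 ± 6.90 CPM late (SD, n = 5). The lowest level rested on 12 counts (exact Poisson 95% interval 6.20 to 21.0). The fitted log2 fold change was 2.69 (SE 0.69, unadjusted p = 0.00232, adjusted p = 0.192 by edgeR) early against before and 3.13 (SE 0.65, unadjusted p = 0.000459, adjusted p = 0.0603) early against late. TNFAIP3 was fitted above BCL3 early against before without the tumor block, with the CL tumors summed, and with caudal CL or BM left out. BCL3 and RELB lie near each other on chromosome 1.

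NFKBIE (chr12:12858827-12867147) encodes IκBε, an inhibitor that holds RELA and REL dimers in the cytoplasm. Levels before treatment were 6.80 CPM in RV, 32.1 in cranial CL, 18.2 in caudal CL, and 38.6 in BM, and early levels were 124, 58.0, 36.5, and 36.4 CPM. Late levels were 17.2 and 13.4 CPM at the RV sites, 32.9 in cranial CL, 23.5 in caudal CL, and 29.99 in BM. The lowest early library was above the highest late one, while BM before treatment was above its early library. The fit gave 1.57 (SE 0.62, adjusted p = 0.407) early against before, and 0.59 with RV left out. Early against late it gave 1.51 (SE 0.55, adjusted p = 0.118).

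NFKBIZ (chr33:8558667-8568280) encodes IκBζ, a nuclear cofactor needed for a second wave of target genes. It was at 10.9, 36.9, 15.6, and 14.4 CPM before treatment and at 42.8, 28.4, 39.1, and 27.6 CPM early in RV, cranial CL, caudal CL, and BM. Only the cranial CL tumor was lower early than before, and that tumor began from the highest level. Late libraries held 4.54 and 18.5 CPM at the RV injection and adjacent sites, 13.1 and 13.8 CPM in the CL tumors, and 14.5 CPM in BM, all below the lowest early library. The fit gave 0.94 (SE 0.52, adjusted p = 0.521) early against before and 1.40 (SE 0.48, adjusted p = 0.102) early against late. The 2 late RV sites, taken from 1 mass on the same occasion, differed by log2 2.003 for NFKBIZ, against a median absolute difference of 0.41 over the 10 members and 0.48 over all genes.

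NFKBIA (chr8:14262614-14265883) encodes IκBα, the inhibitor that is degraded and then resynthesized within a bout of signaling. Its levels split the tumors. In RV it was at 129 CPM before, 846 CPM at 2 days, and 176 and 114 CPM late. In the caudal CL tumor it was at 333 CPM before, 55.2 CPM early, and 424 CPM late, so the early library was the lowest of all 13. In the cranial CL tumor it was at 135 CPM before, 158 CPM early, and 471 CPM late. BM held 84.7, 119, and 83.2 CPM. The caudal CL difference was log2 -2.59 early against before, the lowest value of any member in any tumor, and remained -2.51 with the offsets. In that tumor the NFKBIA level and the summed neutrophil markers were both high before and late and low early. In RV both were highest early. In cranial CL the neutrophil markers were at 33.7, 454, and 256 CPM before, early, and late, while NFKBIA was highest late. In BM the markers were at 43.6, 37.9, and 8.73 CPM, while NFKBIA was highest early. A link was not tested. The fitted early value of NFKBIA was 0.76 (SE 0.84, adjusted p = 0.712), and it was -0.45 with RV left out.

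TNFAIP3 (chr1:30484573-30499998) encodes A20, a ubiquitin-editing enzyme that shuts off signaling to IKK. It was at 5.997 CPM in RV before treatment and at 253 CPM at 2 days, and the late RV sites held 5.09 and 8.83 CPM. In the cranial CL tumor it was at 11.96, 37.1, and 29.7 CPM before, early, and late, in the caudal CL tumor at 10.8, 9.41, and 23.3 CPM, and in BM at 19.5, 15.8, and 18.4 CPM. The RV library at 2 days stood far above the other 12, which lay between 5.09 and 37.1 CPM. The fitted early value of 2.35 (SE 1.17, adjusted p = 0.490) was 0.39 with RV left out.

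Tumor by tumor, 10 of 10 members were higher early than before in RV (median log2 difference 2.42), 9 in cranial CL (0.53), 6 in caudal CL (0.93), and 7 in BM (0.30). Over all genes the shares higher were 54.5%, 50.5%, 52.7%, and 49.1%. These differences each rest on 1 library per time point and carry no test. Members higher early in 4 of 4 tumors numbered 4 (NFKB2, RELA, RELB, and BCL3), against 10.8% of all genes. With the offsets the number was also 4, with NFKB1 in place of RELA, and the share of all genes was not computed. For NFKB2, RELA, RELB, and BCL3 under TMM scaling, the exact two-sided sign-flip permutation test gave p = 0.13. This is the smallest value that 4 tumors allow. The test was not run with the offsets. No member had all early libraries above all before libraries, a pattern that 2.71% of all genes showed. Late against before treatment, 8, 5, 7, and 4 members were higher in RV, cranial CL, caudal CL, and BM, and none was higher in all 4 tumors (7.13% of all genes). No member passed the adjusted threshold late against before in edgeR's test, nor did any gene (0%). DESeq2 passed no member there and 0.0348% of all genes.

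**Figure D2:**
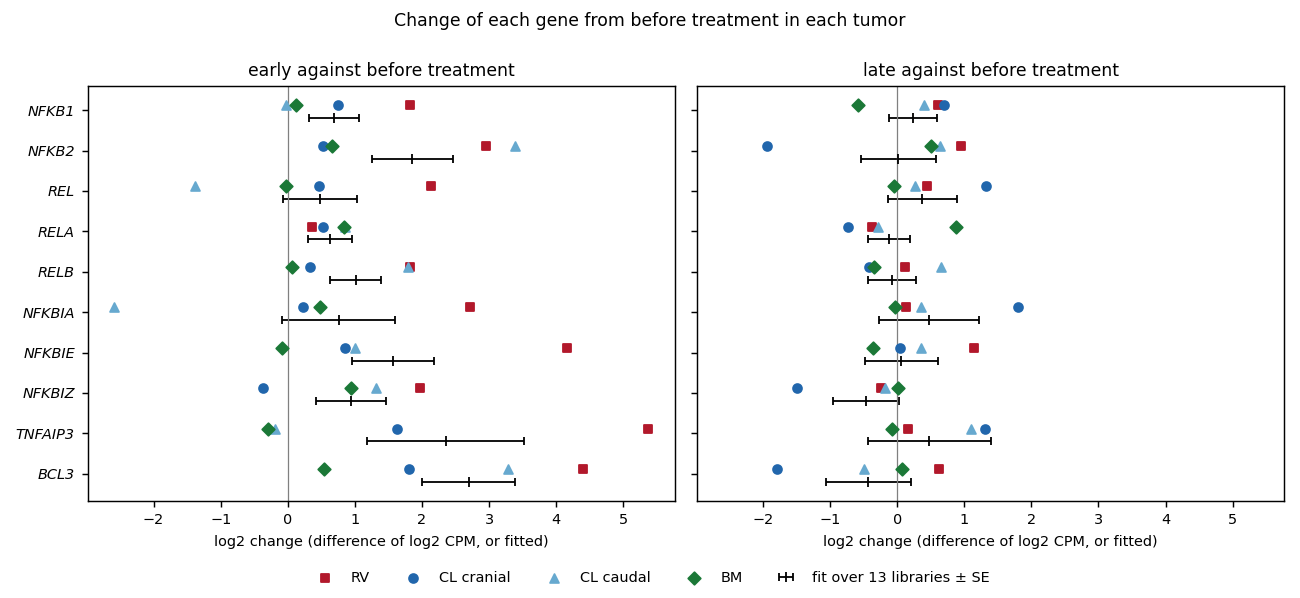
Difference in log2 CPM from before treatment for each of the 10 genes (rows) in each tumor (colored symbols, 1 library per time point, the 2 late RV sites averaged), early on the left and late on the right. Black bars are the fitted log2 fold change ± SE over 13 libraries. Early symbols lie mostly to the right of 0, up to 5.37 for TNFAIP3 in RV and down to -2.59 for NFKBIA in caudal CL, and late symbols lie on both sides.

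The early and late libraries were also set against each other directly. All 10 members were fitted higher early than late, as were 12310 of the 20118 genes tested. The median was 1.25 over the members and 0.35 over all genes. With RV left out, 7 members were higher, with a median of 0.67 against 0.19 over all genes. With the late RV sites summed 8 members were higher (median 1.103, against 0.30 over all genes). With the offsets 8 members were higher (median 0.91, against -0.09 over all genes). No member passed the adjusted threshold in edgeR, which 2 of all genes did (0.00994%). At an unadjusted p under 0.05, 6 were higher early (BCL3, NFKB2, RELB, NFKBIZ, NFKBIE, and RELA), to be read against 17.7% of all genes. DESeq2 passed the same 6 members by name, where it passed 23.9% of all genes. The number higher early than late in 4 of 4 tumors was 5 (NFKB2, RELB, NFKBIE, NFKBIZ, and BCL3), against 17.4% of all genes. With the offsets RELB was higher in 3 of 4. These comparisons share their early libraries with the comparison against before treatment and are not separate evidence.

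The fitted early difference was larger in RV than over the 3 mammary tumors together for 9 of the 10 members. The exception was RELA. The median fitted gap was 1.95 over the members and 0.11 over all genes. Tumor by tumor, NFKB2 differed by 3.38 in caudal CL and by 2.95 in RV, so RV did not exceed each mammary tumor for that gene. The RV side rests on 1 tumor with 1 library before and 1 early, which were assumed to vary like the other libraries, so the p-values of this comparison concern these libraries and not sarcomas in general. TNFAIP3 was fitted at log2 5.395 early against before in RV and at 0.38 in the mammary tumors, a difference of 5.01 (SE 1.05, unadjusted p = 0.000689, adjusted p = 0.0913 by edgeR). NFKBIE was fitted at 4.19 and 0.58, a difference of 3.60 (SE 0.75, adjusted p = 0.0913). For REL the difference was 2.44 (SE 0.86, adjusted p = 0.133), from 2.14 in RV and -0.30 in the mammary tumors. For NFKBIA it was 3.16 (SE 1.32, adjusted p = 0.178), from 2.71 and -0.45. These 4 members had an unadjusted p under 0.05 with the larger value in RV, as did 16.7% of all genes. No member passed the adjusted threshold, and neither did any gene (0%), with edgeR. DESeq2 passed 3 members (TNFAIP3, NFKBIE, and REL) and 17.1% of all genes. With BM left out, edgeR passed TNFAIP3 (adjusted p = 0.0272) and NFKBIE (adjusted p = 0.0310) and 9.38% of all genes. For the noncanonical pair the differences were smaller against their errors, at 1.45 (SE 1.27) for NFKB2 and 1.12 (SE 0.80) for RELB, and for RELA the value was -0.37 (SE 0.76). The early RV library was also the one with the highest neutrophil and leukocyte marker sums, the lowest share of ribosomal protein genes (3.42%, against 5.01% to 17.5% in the others), and the lowest gene-density difference.

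**Figure D3:**
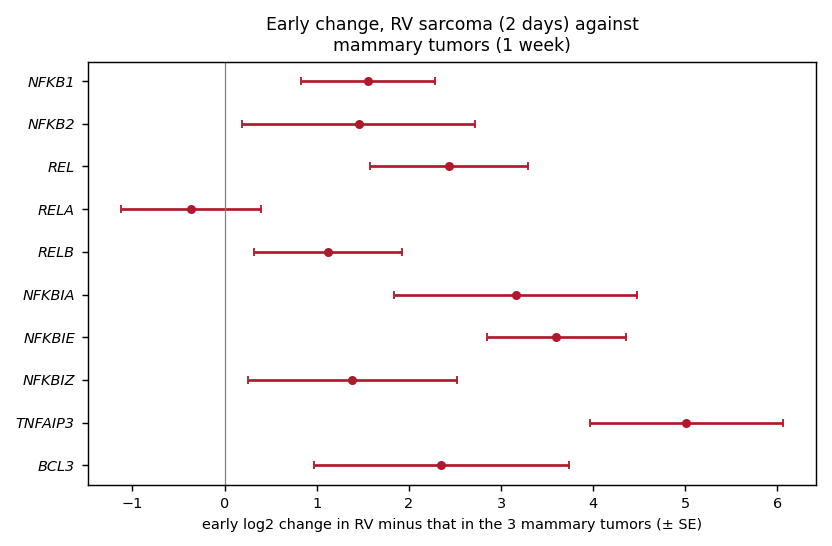
Fitted early log2 change in RV (2 days) minus that in the 3 mammary tumors (1 week) for each of the 10 genes. Bars are SE from the interaction fit over 13 libraries. TNFAIP3 and NFKBIE lie farthest to the right, at 5.01 and 3.60, and RELA lies left of 0 at -0.37.

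The balance between members was followed as a ratio of counts within a library, which does not depend on a scaling factor for the whole library but does depend on the gene-density differences. The log2 ratio of BCL3 to NFKB1 was higher early than before in all 4 tumors, by 2.63 in RV, 1.08 in cranial CL, 3.41 in caudal CL, and 0.43 in BM (mean 1.88 ± 1.37 SD over 4 tumors). With the offsets this did not hold in BM, where the early difference was 0.30 for BCL3 and 0.33 for NFKB1, while it was 2.09 and 0.24 in caudal CL and 4.50 and 0.02 in RV. The other ratios were not refitted. The ratio of NFKB2 to NFKB1 was higher early in 3 of 4 tumors, by 1.13 in RV, 3.44 in caudal CL, and 0.53 in BM, and lower in cranial CL (-0.22). The ratio of RELB to RELA was higher early in RV and caudal CL (1.46 and 0.95) and lower in cranial CL and BM (-0.20 and -0.78). NFKBIA counts were 7.80 times RELA counts in the early RV library and 1.53 times before treatment. In the caudal CL tumor the same ratio was 10.5 before, 0.96 early, and 16.4 late, and in cranial CL it was 2.95, 2.40, and 17.1. With 4 tumors, the exact sign-flip permutation test could not reach 0.05 for any of the 6 ratios followed.

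The levels of some members moved together over the 13 libraries. RELB followed BCL3 (Pearson r = 0.90), NFKB2 (r = 0.88), and NFKBIE (r = 0.80) in log2 CPM. NFKBIA followed REL (r = 0.68), NFKB1 (r = 0.64), and TNFAIP3 (r = 0.62) and not RELB (r = -0.07). The members did not form separate sets, since TNFAIP3 and NFKB1 also correlated with RELB (r = 0.61 and 0.46). Of all tested genes, the 3 most like NFKBIA were SAT1 (r = 0.96), CD47 (r = 0.94), and MARCKS (r = 0.93). Those most like RELB were DNAH17 (r = 0.96), TNFRSF1B (r = 0.95), and GGA1 (r = 0.95), and those most like RELA were PRKAB1 (r = 0.95), TCN2 (r = 0.95), and SHC2 (r = 0.94). These values describe 13 libraries of 4 tumors, which share tumors, tissue content, and the density differences given above.

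Upstream of NF-κB, 15 of 17 listed receptors were analyzed. All 15 were fitted higher early than before, as were 12123 of the 20118 genes tested. The receptors had a median of 1.18, against 0.25 over all genes. At an unadjusted p under 0.05, 7 receptors were higher, against 7.7% of all genes. None passed the adjusted threshold. TNFRSF1B, the TNF receptor of leukocytes, had a fitted value of 2.86 (SE 0.56, adjusted p = 0.124). It stood at 14.3, 24.6, 3.35, and 32.9 CPM before treatment and at 280.2, 91.3, 29.6, and 92.1 CPM early in RV, cranial CL, caudal CL, and BM. CD40, a receptor of the noncanonical pathway on antigen-presenting cells, was at 9.60, 13.1, 10.9, and 8.14 CPM before and at 40.6, 42.3, 15.4, and 25.9 CPM early, so that every early library was above every before library under TMM scaling. With the offsets the caudal CL difference, 0.50 without them, was -0.49. Its fitted value was 1.55 (SE 0.40, adjusted p = 0.193). LTBR, the lymphotoxin receptor, was fitted at 1.01 (SE 0.56), and IL1R1, the signaling receptor for IL1, at 0.71 (SE 0.51).

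Of the 32 kinases and adaptors, 24 were fitted higher early, as were 12123 of the 20118 genes tested. The median was 0.73 against 0.25 over all genes, and 8 were higher at an unadjusted p under 0.05, against 7.7% of all genes. IKBKB, the catalytic IKK subunit of the canonical pathway, was at 30.9, 46.9, 15.1, and 49.5 CPM before and at 77.5, 74.2, 51.1, and 69.6 CPM early, with no overlap between the groups under TMM scaling. Its RV difference was 1.32, and 0.27 with the offsets. It was fitted at 1.04 (SE 0.32, adjusted p = 0.281). CHUK, the other catalytic IKK subunit, was fitted at -0.48 (SE 0.30) and was lower early in all 4 tumors. The regulatory subunit IKBKG was fitted at 0.97 (SE 0.68), MAP3K14, which encodes NIK, at 0.87 (SE 0.52), and TBK1, the kinase downstream of STING, at -0.28 (SE 0.33).

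Of 15 other inhibitors and brakes analyzed (16 listed), 9 were fitted higher early, a share near that of all genes (12123 of 20118). The median was 0.55 against 0.25 over all genes, and 4 were higher at an unadjusted p under 0.05, against 7.7% of all genes. BIRC3, an inhibitor of apoptosis, was at 6.397, 19.0, 8.55, and 31.8 CPM before in RV, cranial CL, caudal CL, and BM. Early it was at 151, 101, 17.3, and 51.6 CPM in the same order (fitted 2.57, SE 0.80, adjusted p = 0.285). TNIP1, a partner of A20, was fitted at 1.94 (SE 0.62, adjusted p = 0.299). Both were higher early in all 4 tumors. NFKBID, a nuclear IκB protein, was fitted at 1.60 (SE 0.80), NFKBIB, which encodes IκBβ, at 0.56 (SE 0.36), and CYLD, a deubiquitinase, at 0.21 (SE 0.34).

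Of 25 NF-κB target genes tested (28 listed), 24 were fitted higher early, as were 12123 of the 20118 genes tested. The median was 1.78 against 0.25 over all genes, and 9 were higher at an unadjusted p under 0.05, against 7.7% of all genes. Over the 25 targets, the median difference was 3.94 in RV, 1.78 in cranial CL, -0.02 in caudal CL, and 0.48 in BM. ICAM1, an adhesion molecule for leukocytes, was higher early in all 4 tumors under TMM scaling (1.14, SE 0.34, adjusted p = 0.269), and with the offsets the caudal CL difference was -0.10 instead of 1.30. CXCL8, the neutrophil chemokine, was at 18.4 CPM in RV before treatment and at 1896 CPM at 2 days, while in caudal CL it was at 138 CPM before, 24.9 CPM early, and 88.8 CPM late. SOD2, the mitochondrial superoxide dismutase, was at 118 and 1467 CPM in RV and at 425 and 169 CPM in caudal CL, before and early. BCL2A1, a survival gene of myeloid cells, was at 25.99 and 575 CPM in RV and at 29.3 and 23.3 CPM in caudal CL. VCAM1 went the other way in RV, at 45.6 CPM before and 4.21 CPM at 2 days, and was at 9.78 and 102 CPM in BM. The cytokine genes TNF, IL1B, IL6, and CCL20 were at 20.99 CPM or lower in all libraries, and each was highest in the early RV library. Their early log2 differences in RV were 5.44, 5.83, 4.45, and 4.67, from only 3, 4, 13, and 1 counts before treatment. IL6 also differed by 3.96 in BM, while in caudal CL IL1B, IL6, and CCL20 were lower early. Late against before treatment, none of the receptors, brakes, or target genes had an unadjusted p under 0.05 with a higher level late. Of the kinases and adaptors 1 did, as did 258 of the 20118 genes tested.

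With the offsets for gene density and span, members higher early numbered 10 in RV, 9 in cranial CL, 6 in caudal CL, and 8 in BM. The medians over the members were 2.58, 0.42, 0.32, and 0.19. The shares of all genes with the offsets were not computed. The caudal CL difference of BCL3 was 2.09 and that of NFKB2 2.56 with the offsets, against 3.28 and 3.38 without. TNFAIP3, NFKBIE, and NFKBIA in RV were at 4.77, 4.31, and 3.20 with the offsets, against 5.37, 4.17, and 2.71 without.

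**Figure D4:**
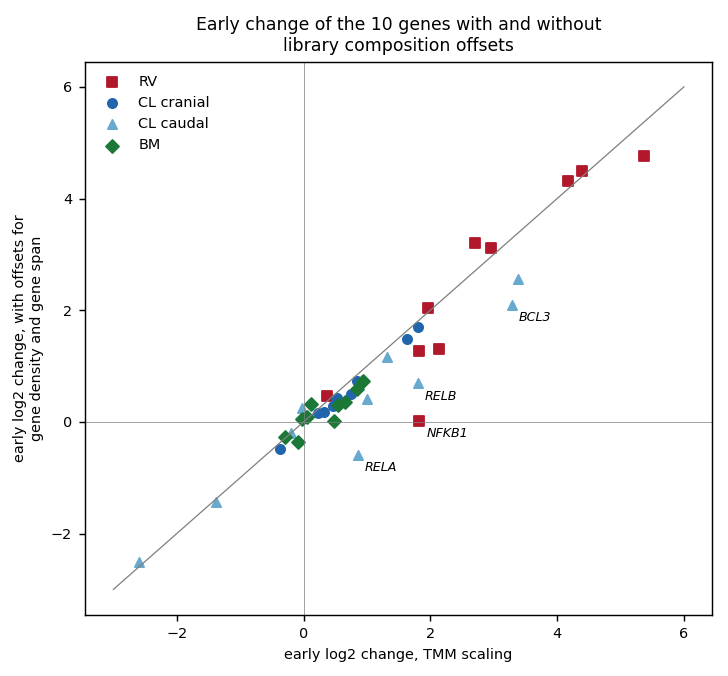
Early log2 change of the 10 genes in each tumor under TMM scaling (horizontal axis) and with offsets for gene density and gene span in each library (vertical axis). Each symbol is 1 gene in 1 tumor, the diagonal marks equal values, and names mark the values that moved by more than 1.1. RELA, RELB, and BCL3 in caudal CL and NFKB1 in RV lie below the diagonal.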

How the data were processed

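The deposited values are raw counts per gene symbol, made by the authors from strand-specific reads aligned to CanFam4.0 with Strand NGS, with no normalization. The annotation release and the treatment of reads shared between genes are not given in the sources used here. The time group and tumor of each library came from the labels. All of the 13 count columns were used, and no 2 libraries were copies (the smallest chi-square between any pair, per degree of freedom, was 49.4). Of the symbols, 98.0% matched RefSeq's table for UU_Cfam_GSD_1.0, which gave gene positions. No transcript length or sequence was used, so levels per length were not computed.

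Genes were filtered with filterByExpr (minimum count 10), scaled by TMM, and fitted in edgeR 4.0.16 under R 4.3.3 (glmQLFit, robust, glmQLFTest) with time group and tumor as factors and 7 residual degrees of freedom. The common biological coefficient of variation was 0.672. P-values were adjusted by Benjamini and Hochberg's method over the 20118 genes tested, with a threshold of 0.05. Differences within a tumor used log2 CPM with a prior count of 2 and were tested, as single values over 4 tumors, with an exact sign-flip permutation test. Alternatives were DESeq2 1.42.0, other scalings, filters, and blocks, and leaving out each tumor. Offsets for gene density and gene span were added after the data were seen.

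The members and gene lists were chosen with earlier results of these data known. Besides the members, the genes named were picked from the pathway lists by their role, and the 3 genes most correlated with each of NFKBIA, RELB, and RELA were added. Some listed genes were not analyzed here, and the report gives the number analyzed beside each list. The tumor pairs the libraries, since its biopsies come from 1 dog. Deviations from the group means correlated at a mean of 0.34 (-0.10 to 0.77) within tumors and -0.11 between them. Whether biopsies of a dog are independent is not known. The p-values of the fits measure the spread left between libraries of these 4 tumors, 2 of which share dog CL. The 2 late RV sites of 1 mass entered the main fit as separate libraries, so part of this spread lies within that mass.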

Additional observations from a re-analysis of the deposited data

Results flagged for a closer look

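In 3 of 50 groups of 4 or 5 values, 1 value stood apart from the others by Dixon's criterion at the 95% level, where chance gives about 2.5. NFKB2 in the cranial CL tumor differed by -1.94 (log2) late against before treatment, while the other tumors lay between 0.50 and 0.96. NFKBIZ in the same tumor differed by -1.49, with the others between -0.24 and 0.014. NFKBIZ at the late RV injection site was at 2.21 log2 CPM, with the other late libraries between 3.72 and 4.22. In none of 20 comparisons between RV and the mammary tumors did the 2 kinds of tumor lie wholly on opposite sides of 0.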

How the results depend on the processing

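The comparisons rest on 4 tumors of 3 dogs, with 1 library per tumor and time point and 7 residual degrees of freedom in the main fit. The fit of RV against the mammary tumors has added terms for RV and leaves fewer. Standard errors of the members' early changes were 0.33 to 1.17 on the log2 scale. Of the single members' values recomputed under alternatives, 433 kept their direction and side of the threshold, 30 had the opposite sign, and 17 passed the threshold. Counts of genes that passed moved more, as given next. Most of the reversals lay near 0 late against before treatment. Causes were not tested.

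DESeq2 passed 2 members early against before (956 genes in all), none late against before (7 genes), 6 early against late (4809 genes), and 3 for RV against the mammary tumors (3435 genes), where edgeR passed no member and 1, 0, 2, and 0 genes. Without a filter on low counts edgeR passed 0, 1, and 2 members early against before, early against late (BCL3, adjusted p = 0.0324), and for RV against mammary, among 17, 1081, and 1505 genes. With the density and span offsets it passed 1 member early against late (BCL3, adjusted p = 0.0486) and 507 genes. Late against before, 3 members (NFKB1, REL, and TNFAIP3) were higher in 4 of 4 tumors with the offsets, and 0 without. The share of all genes showing this with the offsets was not computed. Upper quartile scaling passed 5 genes early against late and DESeq2's size factors 0 early against before. The median change of all genes was 0.25 early against before, 0.58 without the filter, and -0.08 with the offsets, and -0.05 late against before, -0.14 under upper quartile scaling.

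Without the replicate block, which is the pairing by tumor, no member passed and 0 genes passed early against before or early against late. With the dog as block, the CL tumors summed, the late RV sites summed, or only 2 time groups fitted, 0 genes passed in either comparison. Without the block, late against before was -0.035 for NFKBIE and 0.047 for RELA, and early against late was -0.24 for REL.

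NFKB2 late against before (0.015) was -0.042 with DESeq2's size factors, -0.11 with upper quartile scaling, -0.033 without the filter, -0.35 with the dog as block, -0.010 with the CL tumors summed, -0.0064 with the RV sites summed, -0.0091 with the offsets, and -0.042 in DESeq2. NFKBIE was -0.041 with upper quartile scaling and RELB 0.15 with the offsets. Early against late, summing the RV sites gave -0.075 for NFKBIA and -0.084 for REL, and the offsets gave -0.23 for NFKB1 and -0.38 for REL.

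Leaving out each tumor in turn, 0 genes passed early against before and early against late, and 0 to 1921 genes and 0 to 2 members passed for RV against mammary, the highest without BM. Early against before ranged from -0.45 to 1.43 for NFKBIA and from -0.30 to 0.95 for REL. Late against before ranged from -0.31 to 0.65 for NFKB2, -0.0086 to 0.31 for NFKBIE, -0.0041 to 0.73 for NFKBIA, -0.44 to 0.021 for RELA, and -0.27 to 0.044 for RELB. Early against late ranged from -1.18 to 0.92 for NFKBIA, -0.79 to 0.47 for REL, and -0.35 to 2.74 for TNFAIP3. Early against before BCL3 ranged from 2.11 to 3.10 and NFKB2 from 1.29 to 2.49.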
